A study of Mus musculus with 12 samples.

Results

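The cardiac sarcomere genes described here were 10 genes taken by symbol from the 54532 genes of the expression table: Actc1, Myl7, Myl4, Myl3, Myh6, Myh7, Tnnt2, Tnni1, Tnnc1 and Ttn. Their RNA had been counted in 12 mouse embryos (strain C57BL6/J, embryonic day 9.5 or E9.5), 6 KO and 6 WT. The KO embryos were titled TRAF7-*/-*. Their Traf7 gene had been deleted in the whole body by E2a-Cre, and the asterisk marks alleles from the line that also carries the intron deletion of 2310061I04Rik, so both changes stand between KO and WT. The mouse line went back to a single embryonic stem cell clone. The series title speaks of brain and its design text of brain at P14, whereas every sample label gives an embryo, which was followed here. No label says whether embryos shared a litter, so p-values measure the spread between these 12 samples. The design implied 1 question, which sarcomere genes differ between KO and WT embryos.

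The sarcomere is the repeating contractile unit of striated muscle. Thin filaments of actin carry the troponin complex, which senses calcium, thick filaments of myosin heavy and light chains pull on them, and titin spans the gap as a spring. The heart is the first organ to beat in the mouse embryo, and its early muscle uses isoforms that are later sorted between atrium and ventricle or replaced, the β to α myosin heavy chain exchange of the rodent ventricle being the best known.

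The libraries held 16675204 to 21917571 counts. Traf7 was at 13.1 to 19.3 CPM (read counts relative to library size, scaled by the trimmed mean of M values) in KO embryos and 114 to 144 CPM in WT embryos, a log2 fold change of -2.83 ± 0.09 (SE, edgeR adjusted p = 2.4e-10), so the genotype labels fitted. KO embryo 3 stood apart from all others in the sarcomere genes, and its values are therefore given throughout beside those of the remaining embryos. Over all tested genes, KO embryo 5 was the farthest from the other KO embryos, with a chi-square per gene between libraries of 44.5 to 66.2. The remaining pairs of KO embryos were at 6.7 to 26.7. KO embryo 3 also had 5.38 CPM summed over 10 posterior Hox genes and 2.95 CPM over yolk sac endoderm genes. In WT these sums were 134 to 246 CPM and 27.5 to 305 CPM. KO embryo 2 was at 0.409 and 3.09 CPM for the same sums, with sarcomere levels in the range of WT or above it. Outside the range of WT were also KO embryo 6 for the posterior Hox sum (104.5 CPM) and KO embryos 5 and 6 for the yolk sac sum (347.5 and 475.5 CPM). The part of these lists in the sarcomere values was not tested.

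In KO embryo 3 all 10 genes were below 10% of the WT mean (it was 1 of 6 KO embryos). In the other 5 KO embryos their summed level lay near that of WT. The ratio of Myh7 to Myh6 was higher in KO with and without that embryo, by 1.47-fold without it. The summed level of the 10 genes was 1354, 1642, 42.0, 1091, 1504 and 1417 CPM in KO embryos 1 to 6, against 1507, 1123, 1270, 1044, 1345 and 1037 CPM in WT embryos 1 to 6. The level in KO embryo 3 was far below every other embryo, and the other 11 overlapped. In bulk RNA of an embryo, fewer heart muscle cells, less RNA per cell and heart tissue missing from the sample cannot be told apart.

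**Figure D1:**
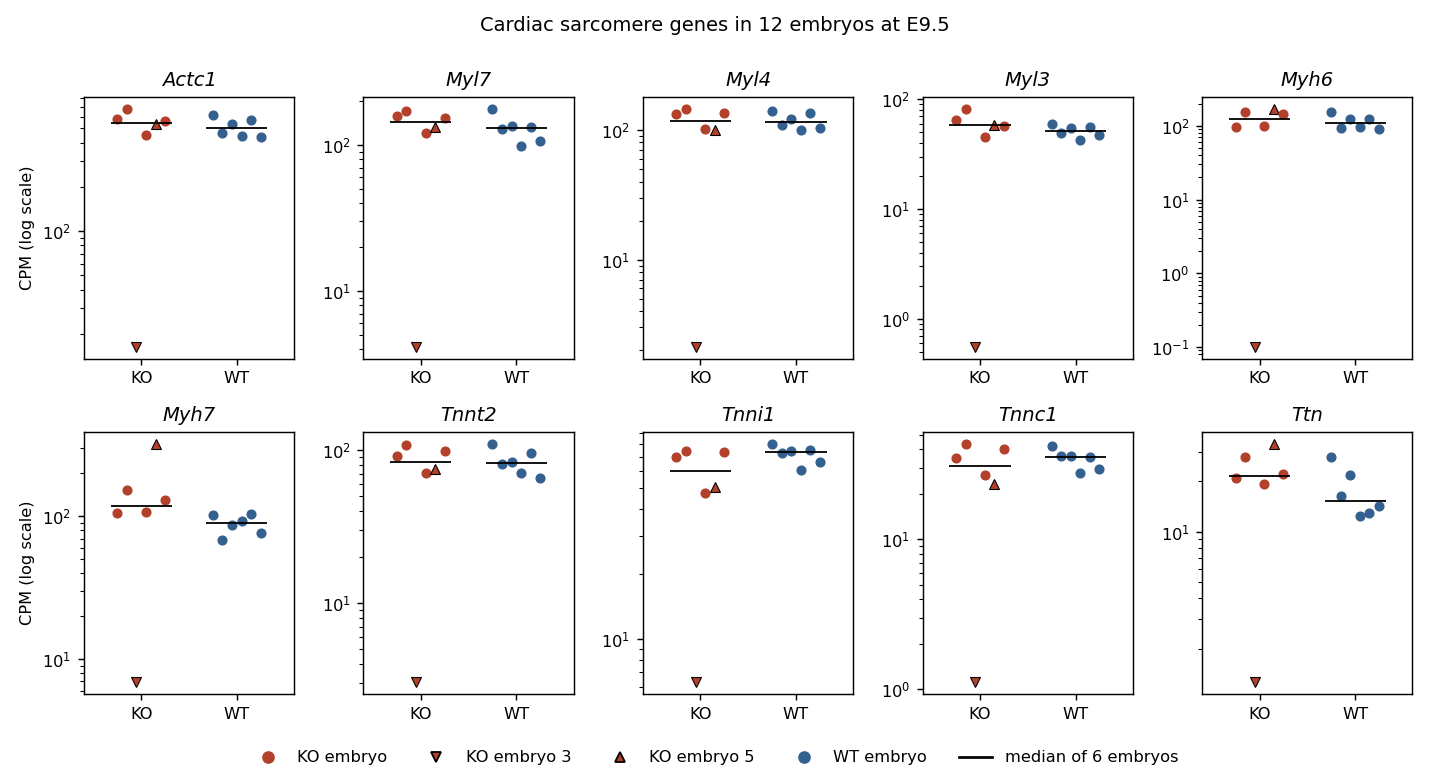
Level of each of the 10 genes in CPM on a log axis, KO embryos left and WT embryos right, 1 point per embryo, with the median of 6 embryos as a line. KO embryo 3 (downward triangle) is the lowest point in all 10 panels, and KO embryo 5 (upward triangle) is the highest in Myh6, Myh7 and Ttn.

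Compared per length, by the FPKM that the authors gave, Actc1 and Myl7 headed the order of the genes in WT. This order depends on the gene lengths that the authors gave. Myl7 and Myl4 had similar mean levels in WT, 130 and 118 CPM, but lengths of 590 and 4637 bases. Actc1 averaged 314.5 ± 46.0 FPKM and Myl7 219 ± 47.6 FPKM (SD, n = 6), with ranges that overlapped each other but none of the rest. Tnnc1 followed with 33.0 ± 5.05 FPKM. Below it came Myl4 (25.3), Myl3 (25.01), Tnni1 (19.8), Myh6 (16.9), Tnnt2 (10.8) and Myh7 (10.2), each overlapping its neighbour in the range over WT embryos. Ttn was at 0.1497 ± 0.0519 FPKM, well apart, on a gene length of 116825 bases in the authors' table. In the KO embryos other than embryo 3 the means were 345 FPKM for Actc1, 248 for Myl7 and 18.8 for Myh7, the last with an SD of 10.3 and its highest value in KO embryo 5.

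Among the thin filament genes, Actc1 encodes cardiac α-actin (ENSMUSG00000068614, chromosome 2, 114047282 to 114053548, minus strand). It had 578, 683, 16.4, 451, 536 and 562 CPM in KO embryos 1 to 6, against 615, 468, 534, 444, 573 and 434 CPM in WT embryos 1 to 6. KO embryo 2 was the highest of the 12 and KO embryo 3 the lowest, and the remaining KO embryos lay within the range of WT. The log2 fold change was -0.12 ± 0.57 (SE, edgeR adjusted p = 0.930), and 0.14 ± 0.11 without KO embryo 3.

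Tnnt2, cardiac troponin T, which anchors the troponin complex on tropomyosin, lies on chromosome 1 at 135836354 to 135852260. Its levels were 92.0, 108, 3.05, 71.0, 74.6 and 97.8 CPM in KO embryos and 109.5, 81.4, 83.5, 70.5, 95.4 and 65.4 CPM in WT embryos. Apart from KO embryo 3, the groups overlapped throughout (0.07 ± 0.14 on the log2 scale without it). Tnni1, the inhibitory troponin I of slow skeletal muscle and of the embryonic heart, is its neighbour, 25365 bases upstream (135779434 to 135810989). It had 69.7, 74.7, 6.30, 47.5, 50.6 and 73.7 CPM in KO embryos, against 80.1, 72.8, 74.6, 60.7, 75.5 and 66.4 CPM in WT. KO embryos 3, 4 and 5 were below every WT embryo. Its log2 fold change was -0.42 ± 0.41 (edgeR adjusted p = 0.616) and -0.18 ± 0.12 without KO embryo 3, below 0 in all 23 alternative settings and past the threshold in none of them.

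Tnnc1 encodes the calcium-binding troponin C shared by heart and slow muscle (chromosome 14, 31208312 to 31211729). Its levels were 35.0, 43.4, 1.12, 26.9, 23.6 and 40.3 CPM in KO embryos and 42.2, 36.0, 35.8, 27.7, 35.7 and 29.6 CPM in WT embryos. As with Tnni1, KO embryos 3, 4 and 5 were below all WT embryos, while KO embryo 2 was above them. The log2 fold change was -0.28 ± 0.51 (edgeR adjusted p = 0.801), and -0.03 ± 0.16 without KO embryo 3.

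The myosin heavy chains, which are the motors, behaved unlike each other. Myh6, the α chain (ENSMUSG00000040752, chromosome 14, 54941921 to 54966927, minus strand), had 96.6, 153, 0.102, 98.4, 172 and 147 CPM in KO embryos 1 to 6, against 153, 94.1, 123, 96.3, 125 and 91.6 CPM in WT embryos 1 to 6. The 0.102 CPM of KO embryo 3 were 2 counts, 0.0892% of the WT mean with an exact Poisson 95% interval of 0.0108 to 0.322% that covers counting error only. No other member was reduced as far. Over all 12 embryos the log2 fold change was -0.03 ± 0.70 (edgeR adjusted p = 0.985), and without KO embryo 3 it was 0.23 ± 0.18.

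Myh7, the β chain (ENSMUSG00000053093, chromosome 14, 54970684 to 54994626, minus strand), lies 3757 bases from Myh6, edge to edge. It was at 106, 152, 6.91, 108, 322 and 130 CPM in KO embryos, against 102, 68.2, 87.2, 92.4, 104 and 76.9 CPM in WT. Every KO embryo except embryo 3 was above every WT embryo, an order that 1.24% of the 14893 genes tested without embryo 3 showed. KO embryo 5 reached 365% of the WT mean. The log2 fold change was 0.64 ± 0.58 over all 12 embryos (edgeR adjusted p = 0.576) and 0.89 ± 0.28 without KO embryo 3 (edgeR adjusted p = 0.298). It was 0.19 without KO embryo 5 and 0.49 ± 0.15 without both (adjusted p = 0.204), so Myh7 was never past the adjusted threshold, and its size rested on those embryos.

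Counts of these neighbours could be mixed in part. Of the 100-base stretches of Myh6 transcripts in the GENCODE annotation, 10% also occur in Myh7, and 7.71% of those of Myh7 occur in Myh6. Shared stretches were at 0.0117% in Ttn and at 0 in the other 7 genes. Mhrt, a noncoding RNA read on the opposite strand, overlaps Myh7, and whether the counting used strand is not given in the sources used here. It had 3 counts over the 12 libraries.

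The light chains stiffen and tune the neck of the myosin head. Myl3, the ventricular essential light chain (chromosome 9, 110741861 to 110769798), had 64.2, 82.3, 0.559, 45.5, 58.3 and 57.4 CPM in KO embryos, against 59.1, 49.2, 54.6, 42.6, 55.7 and 47.1 CPM in WT. KO embryos 1 and 2 were above every WT embryo. The log2 fold change was 0.00 ± 0.59 (edgeR adjusted p = 0.999), and 0.26 ± 0.13 without KO embryo 3 (edgeR adjusted p = 0.373).

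Myl4, the atrial essential light chain (chromosome 11, 104550663 to 104595753), was at 134, 146, 2.13, 102, 99.9 and 135 CPM in KO embryos and at 141, 109, 120, 99.3, 134 and 104 CPM in WT embryos. Myl7, the atrial regulatory light chain, which the whole early heart tube makes (chromosome 11, 5896637 to 5898782), was at 158, 171, 4.17, 122, 134 and 152 CPM in KO embryos and 178, 128, 135, 97.8, 133 and 107 CPM in WT embryos. Outside KO embryo 3, the KO values of Myl7 lay inside the range of WT, and those of Myl4 passed it only in KO embryo 2. Their log2 fold changes without KO embryo 3 were 0.06 ± 0.12 for Myl4 and 0.18 ± 0.14 for Myl7.

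Ttn, the titin spring (chromosome 2, 76703980 to 76982547), had 21.0, 28.0, 1.27, 19.3, 33.4 and 22.1 CPM in KO embryos, against 27.9, 16.4, 21.6, 12.4, 13.0 and 14.2 CPM in WT. It was the member that varied most among WT embryos, with an SD of 34.4% of the mean, whereas Tnni1 varied least with 9.77%. KO embryo 5 was the highest of the 12. The log2 fold change was 0.25 ± 0.50 (edgeR adjusted p = 0.826), and 0.50 ± 0.22 without KO embryo 3 (edgeR adjusted p = 0.332). Without KO embryo 5 it was 0.06.

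Of the 10 genes, 0 were called at an adjusted p of 0.05 or less by edgeR, by DESeq2 or by limma voom, beside 3 of 14804 tested genes by edgeR (0.0203%) and 2.33% by DESeq2. All 10 passed the filter on low counts. At an unadjusted edgeR p of 0.05 or less the count was also 0, whereas 17.9% of all genes reached it. Without KO embryo 3, 0 of the 10 were called beside 0.0134% of genes. Myh7 and Ttn, 2 of the 10, then had an unadjusted p of 0.05 or less with a higher level in KO, beside 8.07% of all genes. The median log2 fold change of the 10 was -0.09 over all embryos and 0.16 without KO embryo 3, with the median of all genes at 0.01 in both fits.

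**Figure D2:**
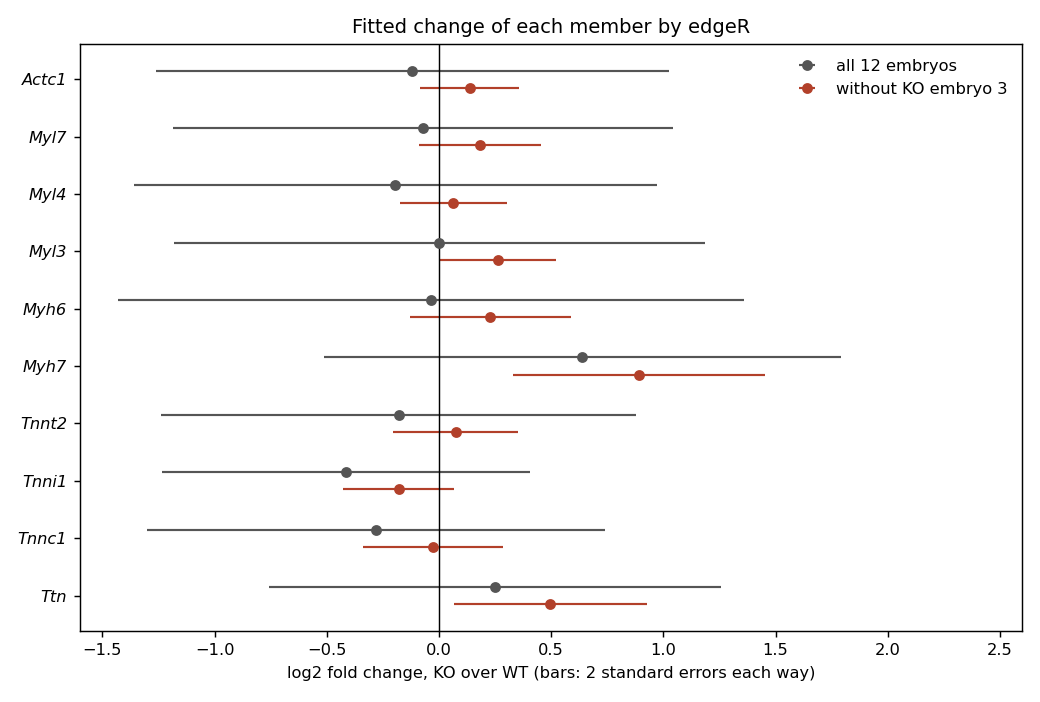
Fitted log2 fold change of each gene, KO over WT, from edgeR with 2 standard errors each way, over all 12 embryos (grey) and without KO embryo 3 (red). With KO embryo 3 every bar spans 0, and without it the bars of Myh7, Ttn and, narrowly, Myl3 lie above 0, with adjusted p of 0.298, 0.332 and 0.373.

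The members were not equally low in KO embryo 3. Relative to the WT mean, Myh6 was at 0.0892%, Myl3 at 1.09% and Myl4 at 1.81%. Actc1 (3.21%), Myl7 (3.21%), Tnnc1 (3.24%) and Tnnt2 (3.62%) followed together. Ttn (7.23%), Myh7 (7.82%) and Tnni1 (8.79%) kept the most. The counts behind these were 2 for Myh6, 11 for Myl3, 22 for Tnnc1 and 25 for Ttn, up to 323 for Actc1. The exact Poisson intervals of Myl3 (0.543 to 1.95%) and Myh7 (6.56 to 9.25%) were far apart, and those of Actc1, Myl7, Tnnc1 and Tnnt2 overlapped. All 10 genes had their lowest level of the 12 embryos in this one, which held for 1485 of the 14804 genes tested, and all 10 were below 10% of the WT mean, which held for 0.925% of genes. This is 1 embryo, and no test over replicates can be made of it.

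**Figure D3:**
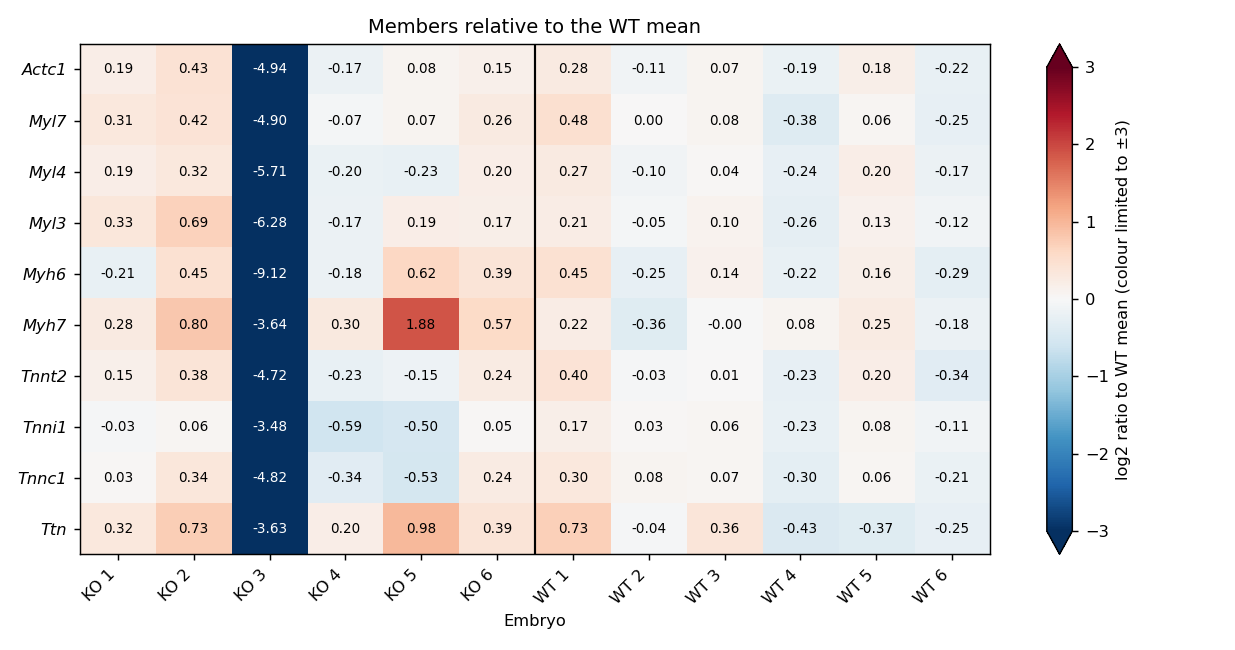
Log2 ratio of each gene to its WT mean, 1 column per embryo with KO left of WT, colours limited to 3 each way and the value printed in each cell. The column of KO embryo 3 runs between -9.12 for Myh6 and -3.48 for Tnni1, and the highest cell is Myh7 in KO embryo 5 at 1.88.

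As shares of the summed FPKM of the 10 genes, which rest on the same gene lengths, the makeup was steady in the 2 largest members. These 2 hold most of the sum, so changes in the small members move their shares little. Actc1 took 44.99 to 46.9% in KO embryos, embryo 3 included at 46.1%, and 44.6 to 49.0% in WT embryos. Myl7 took 31.6 to 34.5% in KO embryos and 29.6 to 35.4% in WT embryos. Tnni1 took 7.96% in KO embryo 3 and 1.96 to 2.65% in the remaining KO embryos, against 2.61 to 3.21% in WT. Myh6 took 0.07% there, against 2.18 to 2.67% in WT. Myl3 took 1.24% in that embryo and 3.64 to 4.47% in the remaining KO embryos, against 3.39 to 4.01% in WT, and Myl4 took 2.09% in it and 3.001 to 3.76% in those, against 3.56 to 3.94% in WT. Tnnt2 (1.79%) and Ttn (0.049%) had their highest share of the 12 embryos there. Myh7 took 3.65% in KO embryo 3 and 5.21% in KO embryo 5, against 1.23 to 1.91% in WT. The Actc1, Myl7 and Tnnc1 shares of KO embryo 3 lay within those of the other embryos.

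Ratios between isoforms within an embryo do not depend on the scaling of its library. They were computed per length with 0.5 added to each count and tested by an exact permutation test over all 924 assignments of the embryos (two-sided, smallest possible p = 0.0022), adjusted over 6 ratios. The Myh7 to Myh6 ratio, β over α, was 0.856, 0.778, 42.6, 0.855, 1.46 and 0.691 in KO embryos, against 0.520, 0.566, 0.552, 0.749, 0.646 and 0.655 in WT embryos. All KO embryos but embryo 6 were above all WT embryos. The difference of mean log2 ratios was 1.48 (exact permutation p = 0.0043, adjusted p = 0.026). The ratio of KO embryo 3 came from 136 and 2 counts, with an exact binomial 95% interval of 14.4 to 443.

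Without that embryo the ratio averaged 0.928 ± 0.305 in KO and 0.615 ± 0.085 in WT (SD, n = 5 and n = 6), a difference of 0.55 on the log2 scale or 1.47-fold (exact permutation p = 0.0065, adjusted p = 0.039). Without KO embryo 5 in addition, it was 0.38 (exact permutation p = 0.024). With KO embryo 3 kept, the SD of the log2 ratio in KO was 2.31, wider than the difference itself, and without it the SD was 0.41. With all KO embryos kept, leaving out WT embryo 1, 2, 3, 5 or 6 raised the p to 0.054 to 0.074, the direction being kept.

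**Figure D4:**
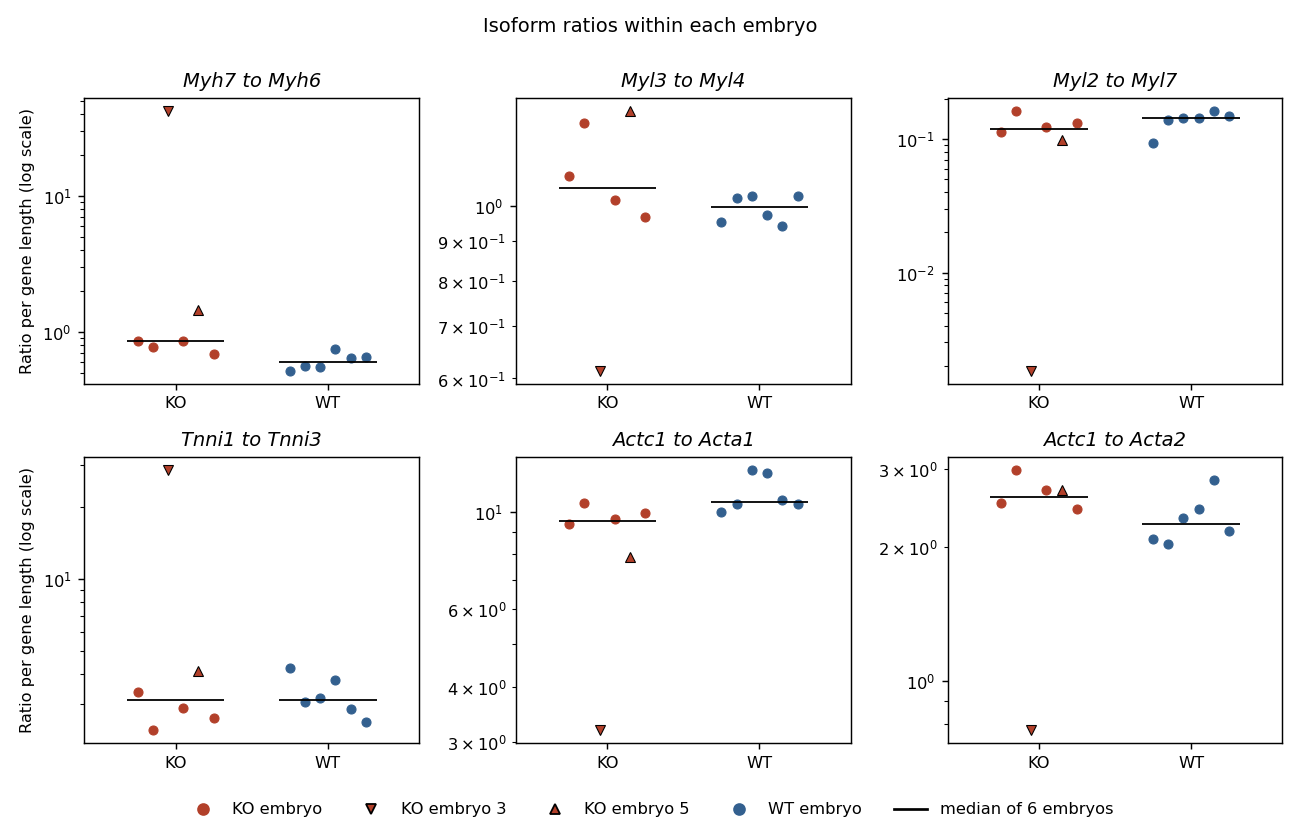
Ratio of the named isoforms per gene length on a log axis, 1 point per embryo, KO left of WT, with the median of 6 embryos as a line. Myh7 to Myh6 is higher in KO, with 5 of 6 KO embryos above all WT embryos, and KO embryo 3 (downward triangle) is at an extreme in all panels.

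The cardiac to skeletal α-actin ratio, Actc1 to Acta1, was 9.39, 10.4, 3.18, 9.62, 7.86 and 9.95 in KO embryos, against 9.97, 10.4, 12.4, 12.2, 10.6 and 10.4 in WT embryos. All KO embryos except embryo 2 were below all WT embryos, embryo 6 by little. The difference of mean log2 ratios was -0.48 (exact permutation p = 0.013, adjusted p = 0.039). Without KO embryo 3 it was -0.22 with an adjusted p of 0.065 by the same exact permutation test, and so no longer past the threshold. Acta1 itself, the actin of skeletal muscle that the early heart also makes, was at 56.7 ± 7.99 CPM in the 5 KO embryos and 44.6 ± 8.77 CPM in WT.

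The other 4 ratios did not pass. Myl3 to Myl4, the ventricular over the atrial essential light chain, was 1.09, 1.28, 0.614, 1.02, 1.32 and 0.968 in KO embryos and 0.943 to 1.03 in WT embryos. The difference of mean log2 ratios was 0.04 (exact permutation p = 0.857), and 0.18 without KO embryo 3 (exact permutation p = 0.043, adjusted p = 0.087). The spread was the wider feature, with 3 KO embryos above all WT embryos and 1 below.

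Myl2, the ventricular regulatory light chain, had 0 counts in KO embryo 3 against 58.2 ± 8.82 CPM in WT (SD, n = 6), at least 382-fold lower with a floor of 3 counts in that library. In the other KO embryos the Myl2 to Myl7 ratio was 0.0995 to 0.164, against 0.0932 to 0.164 in WT (exact permutation p = 0.225 over all embryos and 0.450 without embryo 3). Tnni1 to Tnni3, the embryonic over the cardiac troponin I, was 2.33 to 4.12 in those KO embryos and 2.52 to 4.27 in WT, but 28.5 in KO embryo 3 from 124 and 2 counts (exact permutation p = 0.717 over all embryos). Actc1 to Acta2, cardiac over smooth muscle actin, was 0.775 in KO embryo 3 and 2.44 to 2.98 in the remaining KO embryos, against 2.04 to 2.84 in WT (exact permutation p = 0.970). In KO embryo 3 the isoforms that slow skeletal or smooth muscle also make held a larger share of the troponin I pair and of both actin pairs than in any other embryo. Myh7 likewise held its largest share of the heavy chain pair there, with a ratio of 42.6 to Myh6 while Myh7 itself was at 7.82% of the WT mean. Whether that ratio reflects heart muscle was not tested.

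All 10 genes were low together in KO embryo 3, and the promoters of those with motifs named for muscle factors are shown for their sequence. The bases before the RefSeq start sites were searched on both strands (assembly GRCm38.p6, 250 bases, all 10 genes matched). A gene was counted if any of its windows held the motif, and Myh7, Tnnt2 and Tnni1 had 2 windows each. The background share is per window, which favours the members somewhat. The CArG box, the motif named for the serum response factor SRF, was in 3 of 10 promoters, beside 1.47% of 32851 promoter windows of the same length. The stretches of 100 bases that end at the start site are printed for these, 5′ to 3′, with the CArG box in capitals and, in Myl7, also CATTCC beside it.
Actc1 (chr2:114052876-114052975, minus strand): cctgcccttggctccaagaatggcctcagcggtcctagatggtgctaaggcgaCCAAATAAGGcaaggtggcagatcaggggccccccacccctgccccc
Myl7 (chr11:5898783-5898882, minus strand): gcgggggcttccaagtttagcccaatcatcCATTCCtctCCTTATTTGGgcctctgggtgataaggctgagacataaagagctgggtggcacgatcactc
Myl3 (chr9:110763578-110763677, plus strand): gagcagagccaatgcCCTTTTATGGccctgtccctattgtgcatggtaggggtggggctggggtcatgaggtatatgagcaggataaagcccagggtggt
The CArG box of Myl7 is that of Actc1 read on the other strand, letter for letter. Actc1 and Myl7 were also the members with the highest level per length in every embryo, by the gene lengths that the authors gave.

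CATTCC, the core of the MCAT motif named for TEAD factors, was in 6 of 10 promoters (Myh6, Myh7, Tnnt2, Tnnc1, Myl3 and Myl7), beside 12.6% of all windows. The promoters of the heavy chain pair, whose ratio was tested above, are printed at 250 bases, with the MCAT core in capitals as read on the opposite strand.
Myh6 (chr14:54966608-54966857, minus strand): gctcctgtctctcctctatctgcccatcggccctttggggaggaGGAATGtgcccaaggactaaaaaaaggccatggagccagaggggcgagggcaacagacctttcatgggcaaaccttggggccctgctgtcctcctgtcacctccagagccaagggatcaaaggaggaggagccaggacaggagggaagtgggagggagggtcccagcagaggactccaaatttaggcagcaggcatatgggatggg
Myh7 (chr14:54994627-54994876, minus strand): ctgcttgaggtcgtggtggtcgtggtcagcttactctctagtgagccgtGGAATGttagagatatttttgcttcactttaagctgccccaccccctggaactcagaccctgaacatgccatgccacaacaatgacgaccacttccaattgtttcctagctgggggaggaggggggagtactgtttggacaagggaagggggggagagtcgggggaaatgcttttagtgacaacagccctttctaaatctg
The core lies 206 to 201 bases before the Myh6 start and 201 to 196 bases before the Myh7 start. Both windows also hold AAGTG on either strand, the core of the NKX2-5 motif, as do 5 of the 10 promoters and 40.7% of all windows. A MEF2 motif was found in Ttn only (2.92% of windows), AGATAA in Tnnt2 only (9.99%), AGGTGT in Tnni1 only (11.8%), ACGTG in Myl7 only (16.6%) and TATAAA in 0 of the 10 (12.4%). A match is a description of letters, and none of these measures binding.

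The genes most like the mean profile of the 10 over the 12 embryos, by the root mean square difference of centred log2 CPM, were Ldb3 (0.14), a Z-disc protein, Actn2 (0.18), the α-actinin of the Z-disc, and Myom1 (0.23), which ties the M-band. They were followed by Cox6a2, Fsd2, Casq1, Smpx, Hspb2, Csrp3 and Asb2, up to 0.31. Among the members Actc1 (0.09) and Myl7 (0.11) were nearest to the mean and Myh6 (1.12) the farthest. Ldb3 had 0.508 CPM in KO embryo 3, and 18.2 to 26.4 CPM in the remaining KO embryos, against 14.4 to 22.1 CPM in WT. The likeness was set mostly by that embryo.

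Other sarcomere genes gave the same picture in part. Of 23 listed, 20 were tested and 0 called by edgeR, DESeq2 or limma voom. At an unadjusted edgeR p of 0.05 or less there was 1, beside 17.9% of all genes, and the median log2 fold change was -0.10. Without KO embryo 3 the median was 0.13, and 7 of 20 had an unadjusted edgeR p of 0.05 or less with a higher level in KO (8.07% of all genes did). Myh7b, a slow heavy chain relative, was at 2.74 ± 0.785 CPM in KO and 1.87 ± 0.597 CPM in WT (edgeR adjusted p = 0.265), and unlike the rest was at 117% of the WT mean in KO embryo 3. Tpm1, tropomyosin, and Tcap, which caps titin, were at 60.5% and 2.73% there. In that embryo 12 of the 20 were below 10% of the WT mean, beside 0.925% of all genes.

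Sarcomere assembly genes, such as chaperones and ligases, had 0 of 11 called by the 3 tools, 0 at an unadjusted p of 0.05 or less, and a median of -0.11. Trim54 (-0.61), Cryab (-0.36), Speg (-0.11) and Trim55 (-0.38 on the log2 scale) had the smallest p, none below 0.164. Calcium handling genes had 0 of 10 called by the 3 tools and 0 at an unadjusted p of 0.05 or less, with a median of 0.16. Without KO embryo 3, 10 of 10 were above 0 and 5 had an unadjusted edgeR p of 0.05 or less with a higher level in KO, beside 8.07% of all genes. Ryr2, the calcium release channel, was at 14.3, 21.1, 0.813, 13.8, 25.9 and 18.2 CPM in KO embryos and 11.7, 9.37, 11.1, 9.59, 13.6 and 8.55 CPM in WT embryos. Every KO embryo but embryo 3 was above every WT embryo, an order that 1.24% of genes showed. The log2 fold change of Ryr2 was 0.81 without that embryo (edgeR adjusted p = 0.292). DESeq2 called Ryr2 in that setting, among 92 genes called over all genes. Cacna1c, the L-type calcium channel, was at 9.84 ± 2.27 CPM in those KO embryos and 7.48 ± 0.684 CPM in WT (edgeR adjusted p = 0.303).

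**Figure D5:**
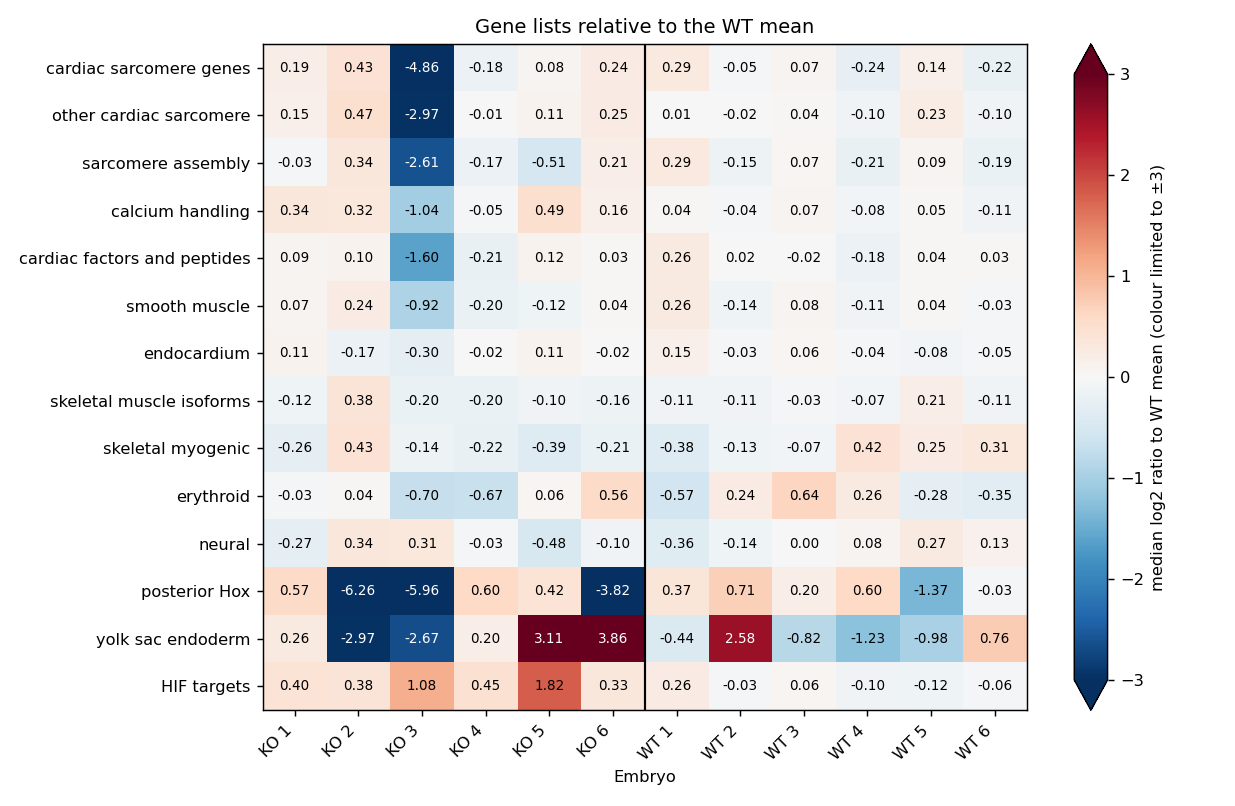
Median log2 ratio to the WT mean of each gene list, 1 column per embryo with KO left of WT, colours limited to 3 each way. In KO embryo 3 the sarcomere lists are at -4.86, -2.97 and -2.61 while the endocardium list is at -0.30 and the skeletal myogenic list at -0.14. Posterior Hox genes (-5.955) and yolk sac endoderm genes (-2.67) are also low there. The HIF targets are highest in KO embryos 5 (1.82) and 3 (1.08).

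The lists of other tissues moved differently in KO embryo 3. Skeletal myogenic genes, 4 of 9 tested, summed to 61.4 CPM in it, against 43.3 to 68.3 CPM in WT. Most of that sum was Pax3 (36.2 CPM) and Pax7 (18.9 CPM), factors of muscle precursors that the neural tube also makes. Myog, the differentiation factor of skeletal muscle, was at 4.42 CPM there and 4.40 ± 1.69 CPM in WT, whereas Myf5, the early determination factor, was at 0.813 CPM, 30.6% of the WT mean. Endocardial genes summed to 404 CPM against 439 to 525 CPM in WT, and neural genes to 802.5 CPM against 560.5 to 847 CPM in WT. The largest terms of the endocardial sum in KO embryo 3 were Hapln1 (128 CPM) and Cdh5 (77.7 CPM). Nfatc1 of the same list was at 6.30 CPM, 68.9% of the WT mean. These 3 were named after their values were seen, and whether the sum came from the endocardium alone was not tested. Erythroid genes, mainly globins, summed to 2595 CPM against 2683 to 6725 CPM in WT. The heart muscle genes were thus low in an embryo whose skeletal myogenic and neural sums were within the range of WT and whose endocardial sum was below it. Its posterior Hox and yolk sac endoderm sums were far below WT, at 5.38 and 2.95 CPM, so the low level was not particular to heart muscle. The smooth muscle list summed to 117 CPM there, against 342 to 502 CPM in WT, mostly by Acta2 with 23.3 CPM. This list was uneven, with a median of 45.6% of the WT mean over the 7 tested. Below 10% of the WT mean were 2 of the 7, beside 0.925% of all genes. They were Acta2 (9.51%) and Cnn1 (7.26%, named after its values were seen), whereas Smtn was at 78.9%. Whether smooth muscle itself was reduced was not tested. Nppa, the atrial natriuretic peptide of working heart muscle, chosen after its values were seen, had 0 counts there, at least 54.0-fold below the WT mean of 8.23 CPM with a floor of 3 counts.

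Over the groups, edgeR called 0 genes of any of these lists, beside 0.0203% of all genes. DESeq2, which called 2.33% of all genes, called 2 outside the HIF targets. These were Npr3 in the endocardium, a receptor that clears natriuretic peptides, at 41.6 ± 4.80 CPM in KO and 32.4 ± 3.46 CPM in WT (edgeR adjusted p = 0.165), also called by limma voom, and Neurog2 among the neural genes, a proneural factor, at 16.0 ± 3.09 CPM in KO and 21.8 ± 3.23 CPM in WT (edgeR adjusted p = 0.169). By unadjusted edgeR p of 0.05 or less, the endocardium had 3 of 9, the neural, smooth muscle and skeletal isoform lists 1 each, and the erythroid, yolk sac, posterior Hox and skeletal myogenic lists 0, beside 17.9% of all genes.

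Cardiac transcription factors and peptides had 1 of 17 higher and 1 lower at an unadjusted edgeR p of 0.05 or less (10.1% of all genes were higher and 7.71% lower). Their median log2 fold change was -0.15. Mef2c, a muscle factor that binds sarcomere promoters, was at 42.4 ± 8.10 CPM in KO and 35.9 ± 3.77 CPM in WT (edgeR adjusted p = 0.272). Hand1, a factor of the left ventricle and of extraembryonic mesoderm, was at 34.8, 12.5, 4.01, 28.6, 30.3 and 40.4 CPM in KO embryos and 27.0 to 56.9 CPM in WT (edgeR adjusted p = 0.338). In KO embryo 3, 14 of the 17 had their lowest level of the 12 embryos, beside 1485 of the 14804 genes tested. Their median there was 32.2% of the WT mean. Mef2c was at 34.8 CPM in it, inside the WT range of 32.9 to 41.8 CPM, whereas Hand1 was at 9.04%, Gata4 at 16.4% and Nkx2-5 at 21.1% of the WT mean, the last pair named after their values were seen. The 11 factors named for binding sarcomere promoters had a median of 0.01, with Mkl1, a partner of SRF, at 33.0 ± 4.42 CPM in KO and 38.6 ± 3.05 CPM in WT (edgeR adjusted p = 0.222) and SRF itself at -0.19 on the log2 scale. The 9 regulators linked to the myosin exchange, among them Smarca4, Prox1, Thra and Med13, had a median of 0.00, and 0 had an unadjusted p of 0.05 or less.

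Another list was that of hypoxia genes. The 12 targets of HIF, the oxygen-sensing factor, all had an unadjusted edgeR p of 0.05 or less and a higher level in KO (10.1% of all genes did). By DESeq2, which called 2.33% of all genes, 8 of the 12 were called, and by edgeR or limma voom 0. Their median log2 ratio to the WT mean was 0.40, 0.38, 1.08, 0.45, 1.82 and 0.33 in KO embryos 1 to 6, against -0.12 to 0.26 in WT. Embryos 3 and 5 were the highest for these genes and also for the Myh7 to Myh6 ratio, but in opposite order. The ratio of KO embryo 3 rested on 2 Myh6 counts. Bnip3, a mitophagy receptor, was at 328 CPM in KO embryo 3, 322 CPM in KO embryo 5, and 90.3 to 132 CPM in the remaining KO embryos, against 47.1 to 65.5 CPM in WT. Pdk1, which restrains pyruvate entry into mitochondria, averaged 255 ± 99.2 CPM in KO and 118 ± 7.30 CPM in WT (edgeR adjusted p = 0.159). Their part in the ratio was not tested. The share of counts from the mitochondrial genome was 0.286 to 0.750% in KO embryos, lowest in embryo 5, and 0.585 to 0.936% in WT, and its part was not tested either.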

How the data were processed

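Total RNA of 12 single E9.5 embryos (6 KO, 6 WT, grouped by title) was sequenced by a service company. The study's text describes storage in a stabilising solution and purification on columns for brain tissue, and no separate handling of embryos. The authors deposited whole-number read counts and FPKM per gene, with gene lengths. The build is GRCm38 per the submitters' processing notes, while for aligner, counter and strandedness the sources used here say nothing. The table also holds fold changes and p-values of the authors' comparison, which were not used. Counts were filtered by filterByExpr, scaled by TMM and tested with edgeR 4.0.16 (quasi-likelihood, Benjamini-Hochberg over all tested genes, called at 0.05) in R 4.3.3, after the same code was tested on simulated data. DESeq2 1.42.0 and limma 3.58.1 were alternatives. CPM has 0.1 added before log2 ratios. Isoform ratios were tested by exact permutation. Intervals and floors cover counting error only, and 3 counts were 0.137 to 0.180 CPM. Named were the 10 members, ratio partners, up to 4 genes of each list by smallest p, and the 10 nearest profiles. A list gene that this rule names is not reported here. Members, lists, ratios and motifs were chosen with earlier results of these data known. Alternatives comprised other scalings, filters and tools, a replicate block and leaving out embryos.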

Additional observations from a re-analysis of the deposited data

Results flagged for a closer look

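In 32 groups of 6 embryos (10 genes and 6 ratios, in KO and in WT), the highest or lowest embryo was looked for by the gap to its nearest neighbour as a share of the range, which picks out about 1 in 20 groups by chance. It picked out 16 groups, 15 of them through KO embryo 3. For the genes these were Myh6 (0.102 CPM), Myl3 (0.559), Tnnc1 (1.12), Ttn (1.27), Myl4 (2.13), Tnnt2 (3.05), Myl7 (4.17), Tnni1 (6.30), Myh7 (6.91) and Actc1 (16.4 CPM), each the lowest of the KO embryos. For the ratios per length, the same embryo was highest in Myh7 to Myh6 (42.6) and Tnni1 to Tnni3 (28.5), and lowest in Myl2 to Myl7 (0.0018), Actc1 to Acta1 (3.18) and Actc1 to Acta2 (0.775). In WT the Myl2 to Myl7 ratio of embryo 1 (0.0932) lay below the other WT embryos.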

How the results depend on the processing

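None of the 10 genes was called under any of 23 alternatives of scaling, filter, tool, block or left-out embryo. The log2 fold changes of Myh7 (0.18 to 0.89) and Ttn (0.06 to 0.50) were above 0 and that of Tnni1 (-0.61 to -0.11) below 0 in all 23, whereas each of the other 7 genes changed sign in at least 1. The number of genes called in the whole table was 3 by edgeR. It was 2 to 5 with single embryos left out, 41 without KO embryos 3 and 5 and 36 without KO embryos 2, 3 and 5. It was 325 by DESeq2, 92 by DESeq2 without KO embryo 3 and 46 by limma voom with quality weights, and the cause was not tested. The settings without embryos 3 and 5 together and DESeq2 without embryo 3 were chosen after seeing the data.

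With single embryos left out, the difference in the log2 ratio of Myh7 to Myh6 was 0.55 to 1.74 and that of Myl2 to Myl7 -1.43 to -0.13. For Myl3 to Myl4 it was -0.037 to 0.18, for Tnni1 to Tnni3 -0.11 to 0.62, for Actc1 to Acta1 -0.56 to -0.22 and for Actc1 to Acta2 -0.18 to 0.21. Actc1 to Acta1 missed the threshold of 0.05 without KO embryos 3 and 5 (-0.16, exact permutation p = 0.081) and without embryos 2, 3 and 5 (-0.18, p = 0.071 by the same exact test), from fewer samples. It also missed it with WT embryo 2, 3, 4, 5 or 6 left out (exact permutation p = 0.052 to 0.082). Myl3 to Myl4 reached it without KO embryo 3 (exact permutation p = 0.043) and Myl2 to Myl7 without KO embryo 2 (exact permutation p = 0.045), both unadjusted. With the replicate block, an exact sign-flip test over same-numbered embryos, Myh7 to Myh6 stayed past it (1.48, exact p = 0.031) and Actc1 to Acta1 did not (-0.48, exact p = 0.0625), and edgeR called 2 genes. Same-numbered embryos did not deviate together as a rule (correlations -0.316 to 0.285), though KO embryos 1 and 4 were closest to the WT embryo of their own number. As shared litters or batches need not show in such correlations, whether the numbers pair the embryos cannot be told from them. In KO embryo 3 Myh6 and Tnni3 had 2 counts each, which limits the precision of ratios that rest on them.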

Other observations

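Skeletal muscle isoforms, of which 9 of 15 were tested, had a median log2 fold change of -0.10. Tnnt3, fast skeletal troponin T, was at 1.603 ± 0.487 CPM in KO and 2.65 ± 0.928 CPM in WT (edgeR adjusted p = 0.202). In KO embryo 3 Actn3, the α-actinin of fast fibres, was at 5.64 CPM, against 5.47 ± 0.472 CPM in WT, and Mylpf, the fast regulatory light chain, at 4.06 CPM, against 4.76 ± 0.966 CPM in WT. The list was not uniform there, since Tnnt3 was at 28.8%, Tnni2 at 25.9%, Myl1 at 13.0% and Acta1 at 10.9% of the WT mean in that embryo, and the list summed to 28.7 CPM in it, against 67.8 to 90.3 CPM in WT. Myl1 was named after its values were seen. The skeletal myogenic genes had a median of -0.26, with Myf5 at 1.76 ± 0.759 CPM in KO and 2.66 ± 1.05 CPM in WT (edgeR adjusted p = 0.327) and Pax3 at 36.3 ± 3.96 CPM in KO and 34.4 ± 4.78 CPM in WT (edgeR adjusted p = 0.686).

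Smooth muscle genes had a median of -0.17, and Smtn, smoothelin, was at 33.5 ± 5.01 CPM in KO and 39.5 ± 3.88 CPM in WT (edgeR adjusted p = 0.235). Erythroid genes had a median of -0.11 and neural genes of -0.05. Yolk sac endoderm genes had a median of 1.10, with Cubn, an uptake receptor, at 9.59 ± 13.5 CPM in KO and 2.95 ± 3.64 CPM in WT (edgeR adjusted p = 0.425), where the SD exceeded the mean in KO as in WT. Posterior Hox genes had a median of -0.55, and Hoxc9 was at 6.99 ± 6.75 CPM in KO and 14.7 ± 4.70 CPM in WT (edgeR adjusted p = 0.534).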
